A study of Mus musculus with 5 samples.

Results

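The ionotropic receptors for glutamate and GABA are ion channels opened by these transmitters. The genes described here were chosen by symbol: every gene of the deposited count table named as an AMPA (Gria), kainate (Grik), delta (Grid) or NMDA (Grin) glutamate receptor subunit, or as a GABA-A receptor subunit (Gabr). The rule found 37 genes, 18 for glutamate and 19 for GABA-A receptors, among 27451 distinct symbols. They were measured in polyadenylated RNA of the mouse forebrain at embryonic day E12.5, in 2 samples labelled wild type and 3 labelled EedcKO. All were untreated, of strain C57BL/6 and described by the submitters as littermates. Eed is part of the core of Polycomb repressive complex 2, the methyltransferase for lysine 27 of histone H3, which keeps many developmental genes silent. The mutant is called EedcKO as in the labels. No Cre driver, deleted exon or targeted cell type is named in the sources used here. Since nothing states that each sample came from a separate embryo, the spread behind each p-value is that of these samples and may in part be technical.

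AMPA and kainate receptors carry fast excitatory current as assemblies of 4 subunits, and NMDA receptors pair the obligatory subunit Grin1 with Grin2 or Grin3 subunits. GABA-A receptors are chloride channels of 5 subunits, most often alpha, beta and gamma together. In immature neurons GABA can depolarise the cell, because intracellular chloride is kept high until the exporter Slc12a5 (KCC2) accumulates. Many of these subunits are present before synapses form, and the subunit mix changes as neurons mature, for example from Grin2b in the embryo toward Grin2a in the adult.

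The libraries held 4820630 to 5026381 counts, and the 37 genes took 0.116% to 0.177% of the counts on rows with a gene symbol. The targeted gene went against 1 label, since the library labelled wild type 2, with 238 Eed counts, was at the level of EedcKO 1, 2 and 3 (251, 233 and 247 counts) and not of wild type 1 (404 counts). The count may include exons that the deletion spares and is an incomplete check. Over the HOX genes the library labelled wild type 2 had 134 counts, where wild type 1 had 2 and the EedcKO libraries 62 to 184, and more counts of surface epithelium, muscle and choroid plexus genes than any other library. Both wild-type libraries and EedcKO 1 were female by Xist and Y-linked counts, and EedcKO 2 and 3 were male. Genes that mark forebrain radial glia, pallial excitatory neurons and the ventral GABAergic lineage all had counts in every library. The counts of the ventral marker Lhx8 were as low as 1 and 4 in EedcKO 2 and 3. Every direction given here therefore rests in part on a library at odds with its label by Eed, and calls that change without that library are given for the receptor genes and the pathway lists. The tissue was sequenced in bulk, so fewer cells of a type and less RNA per cell cannot be told apart.

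Of the 37 genes, 31 had enough counts to be tested. Of these, 5 fell in EedcKO and none rose, by edgeR's quasi-likelihood test with Benjamini-Hochberg adjustment over 13989 genes at a threshold of 0.05. They included Grin3a, Gabra3, Grid1 and Grik4 and were 16.1% of the tested receptor genes, where 2.17% of all tested genes passed as lower and 1.04% as higher. At an unadjusted edgeR p under 0.05, 18 receptor genes were lower and 2 higher, where 9.51% and 7.70% of all tested genes were. DESeq2 (1.72% of all tested genes higher) and limma-voom (0.901%) also called 0 receptor genes higher. The number lower was 8 with DESeq2 (2.76% of all tested genes), with library size alone as the scaling (3.15%) and with no count filter (2.18%). The fitted log2 fold change was below 0 for 23 of the 31 genes, with a median of -0.70, against a median of 0.01 over all tested genes, of which 48.4% were below 0. The 3 EedcKO libraries all lay below both wild-type libraries for 17 genes and all above for 3, where such separation was seen in 17.4% and 16.4% of all tested genes. The number of genes that fell was 12 without the library labelled wild type 2 (background 4.12% of all tested genes), 5 without wild type 1 (4.02%), and 2 without EedcKO 1 (1.19%), namely Gabra3 and Grin3a. Gabrp, untested with all libraries, also came out lower without wild type 1 and is not counted in that 5, because it passed the count filter there only through the library where it was high. No receptor gene passed without EedcKO 2 (0.455% of all tested genes did as lower) or without EedcKO 3 (0%). In these fits edgeR had 17 and 14 receptor genes lower at an unadjusted p under 0.05. In either direction, 1768 of 13860 and 1886 of 13891 tested genes had such a p.

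**Figure D1:**
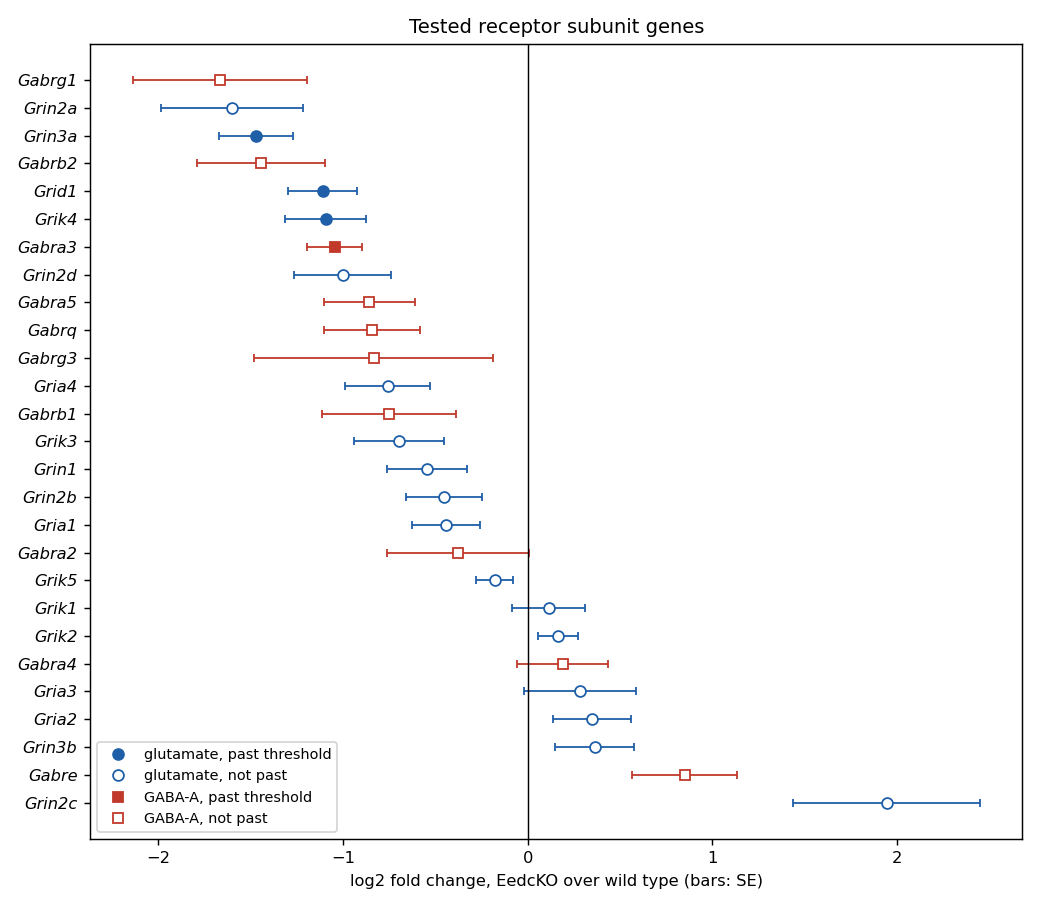
Fitted log2 fold change of EedcKO over wild type for 27 of the 31 tested subunit genes, with bars of 1 standard error; circles are glutamate and squares GABA-A receptor genes, and filled symbols passed an edgeR adjusted p of 0.05. The 4 filled symbols lie between -1.47 and -1.05, and 19 of the 27 genes lie below 0.

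Per transcript length, the kainate receptor subunits Grik5 and Grik3 had the highest mean levels of the members at this age. The kainate genes Grik2, Grik4 and Grik1 were lower (41.9, 13.1 and 9.03 TPM in the mean of the wild type). The deposited TPM (transcript abundance divided by gene length and scaled to library size) of Grik5 was 211 and 196 in the wild-type libraries and 170, 178 and 194 in EedcKO 1, 2 and 3. Grik5 is an auxiliary kainate subunit that needs Grik1, Grik2 or Grik3 to form a channel. Grik3 came next at 183 and 99.5 TPM in the wild-type libraries and 101, 79.3 and 82.8 TPM in EedcKO. Lower mean wild-type levels were those of Gria1 (72.1 TPM), Gria2 (58.9), Gria4 (52.0) and Gabra3 (50.6). These levels overlapped from library to library: Gria2, for example, spanned 44.9 to 72.9 TPM in the wild type. In EedcKO Gria2 had the third mean level (75.6 TPM), ahead of Gria1 (53.4). Grin2a, an NMDA subunit of mature synapses, was scarce in every library, with at most 1.35 TPM.

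**Figure D2:**
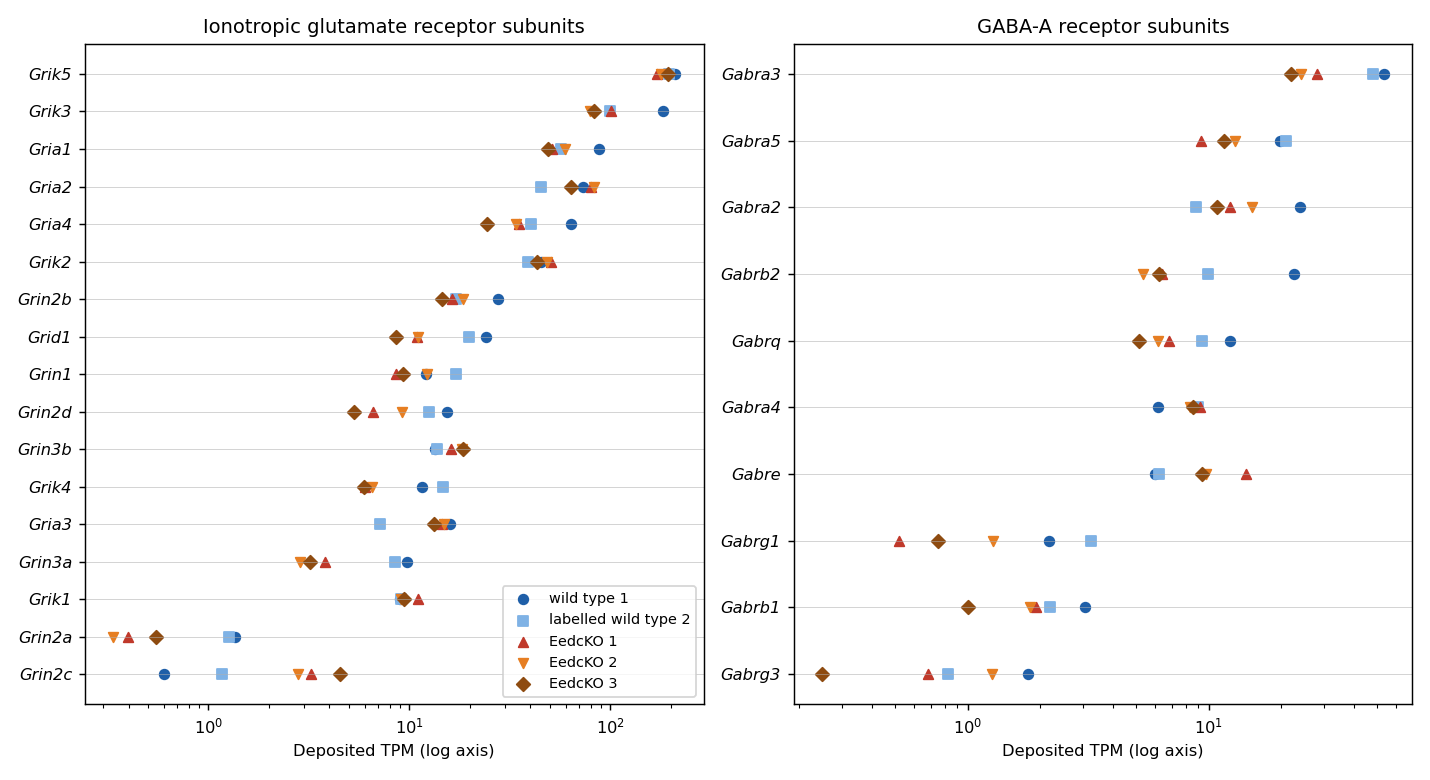
Deposited TPM of 27 tested subunit genes in each of the 5 libraries, on a log axis, with glutamate receptor genes on the left and GABA-A receptor genes on the right in order of the mean wild-type level. Grik5 was the highest member in each library (170 to 211 TPM), and the blue wild-type symbols lie to the right of the EedcKO symbols for Gabra3, Grin3a, Grid1 and Grik4.

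Grik4 and Gabra3, the only members that fell with a promoter sequence at hand, differed widely in promoter CpG content. Polycomb repressive complex 2 is known to gather at CpG-rich promoters that are not transcribed, so the CG dinucleotides (CpG) of the promoters are shown in capitals for a pair of genes that both fell. The windows are RefSeq sequences of build GRCm38.p6 (mm10), 5′ to 3′ on the gene's strand, from 250 bases before to 50 bases after a transcription start. The Grik4 window, at chr9:42944322-42944621 on the minus strand, held 42 CpG, and the Gabra3 window, at chrX:72656758-72657057 on the minus strand, held none, as did the other Gabra3 window listed.
Grik4: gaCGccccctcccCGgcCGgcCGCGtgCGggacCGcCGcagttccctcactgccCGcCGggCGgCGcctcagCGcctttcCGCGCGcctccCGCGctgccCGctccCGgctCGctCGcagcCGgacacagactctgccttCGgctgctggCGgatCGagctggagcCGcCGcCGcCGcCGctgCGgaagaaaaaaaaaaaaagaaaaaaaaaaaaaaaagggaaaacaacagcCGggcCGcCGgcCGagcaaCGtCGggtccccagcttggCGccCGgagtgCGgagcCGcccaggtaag
Gabra3: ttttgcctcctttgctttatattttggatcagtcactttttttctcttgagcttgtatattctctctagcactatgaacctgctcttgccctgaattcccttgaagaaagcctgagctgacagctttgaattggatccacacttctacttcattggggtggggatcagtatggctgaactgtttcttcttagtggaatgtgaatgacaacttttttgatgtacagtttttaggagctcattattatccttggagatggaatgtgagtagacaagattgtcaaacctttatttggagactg
RefSeq windows were matched for 25 of the 37 genes. At least 15 CpG were found in 7 of 10 glutamate receptor windows (70%) and 4 of 19 GABA-A receptor windows (21.1%). This compares with 34.6% of 32851 windows of the same length over all genes. The windows came from 10 glutamate and 15 GABA-A receptor genes, so some GABA-A genes were counted more than once. Among the 20 tested members with a window, the 11 with at least 15 CpG had a median log2 fold change of -0.55 (range -1.09 to 1.94), and the other 9 a median of -0.86 (-1.67 to 0.36). The ranges overlapped, and a CpG count describes only the letters of the window. No Polycomb occupancy was measured here.

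Among the NMDA receptor subunits, Grin3a fell. Grin3a encodes a glycine-binding subunit that lowers the calcium permeability of NMDA receptors. It lies on chromosome 4 (49661611 to 49845744, minus strand, mm10) and had 118 and 106 counts in wild type 1 and the library labelled wild type 2, against 46, 35 and 40 in EedcKO 1, 2 and 3. The groups did not overlap, and the log2 fold change was -1.47 (SE 0.20, edgeR adjusted p = 0.0153), a 2.78-fold lower level. Grin2a, the subunit of mature synapses, had 24 and 23 counts in the wild-type libraries and 7, 6 and 10 in EedcKO (log2 fold change -1.60, SE 0.39, edgeR adjusted p = 0.0741). Grin2d, an embryonic subunit of slow channel kinetics, had 102 and 85 counts against 43, 61 and 36 (a 2.0-fold lower level, edgeR adjusted p = 0.0903). Both had groups that did not overlap and missed the threshold. Grin2c, a subunit best known from the cerebellum, had the opposite sign, from 3 and 6 counts to 16, 14 and 23 (1.94, SE 0.51, edgeR adjusted p = 0.0904). All 3 EedcKO libraries were above both wild-type libraries for Grin2c, on few counts.

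The obligatory subunit Grin1 had 116 and 169 counts in the wild-type libraries and 82, 119 and 91 in EedcKO, and the groups overlapped (-0.55, edgeR adjusted p = 0.248). Grin2b, the main embryonic partner of Grin1, had 367 to 459 counts in EedcKO, 431 in the library labelled wild type 2 and 680 in wild type 1. For Grin3b, the other glycine-binding subunit, the counts were 44 and 46 against 52, 60 and 62 (0.36, edgeR adjusted p = 0.453). Exons of Grin3b and Grin1 overlap genes on the other strand, Tmem259 over 32.1% and Grin1os over 13.5% of their bases, and no source used here gives the strand setting of the counts, so reads of these neighbours cannot be told apart.

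The shares of the NMDA subunits in their summed TPM did not overlap between the groups for some members. Grin3a made up 12.1% and 11.9% in the wild-type libraries and 6.95%, 4.45% and 5.74% in EedcKO. Grin3b made up 16.8% and 19.2% in the wild type and 29.3%, 28.4% and 33.1% in EedcKO. Grin2d went from 19.3% and 17.6% to 12%, 14.3% and 9.53%. The groups did not overlap for these 3 subunits or for Grin2a and Grin2c, on few counts, while they did for Grin1 and Grin2b. Grin3b enters the sum behind every NMDA share, and reads of Tmem259 cannot be told apart from its own. Shares of 1 family are tied, since a rise of 1 lowers the others. An exact two-sided permutation test of 2 against 3 libraries cannot give a p below 0.2. Groups without overlap always give that p (0.333 adjusted over the 30 subunit shares compared), so for these NMDA shares it only restates the lack of overlap. Of these 30, 18 did not overlap between the groups. As CPM, a different measure from a tied share, groups did not overlap in 33.8% of all tested genes.

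**Figure D3:**
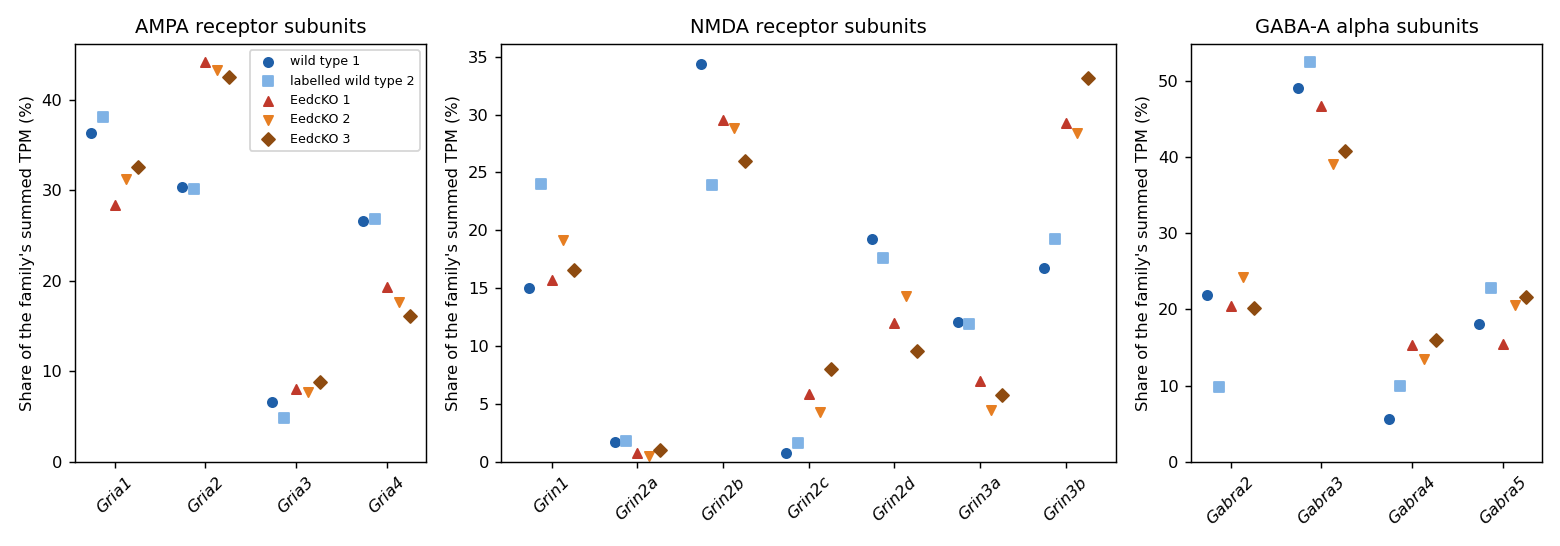
Share of each subunit in the summed TPM of its family in each library, in percent, for members of the AMPA, NMDA and GABA-A alpha families. Gria2 sits at 30.1% to 30.3% in the wild-type libraries and 42.5% to 44.2% in EedcKO, and Grin3b at 16.8% to 19.2% and 28.4% to 33.1%. Exons of Grin3b overlap Tmem259 on the other strand, whose reads cannot be told apart.

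No AMPA receptor gene passed the test. The groups did not overlap for the share of any of the 4 subunits. As CPM, a different measure from a share, groups did not overlap in 33.8% of all tested genes. Shares of 1 family are tied, since a higher share of 1 subunit lowers the others, so the 4 are not separate observations. Gria2, whose edited form makes AMPA receptors nearly impermeable to calcium, had 1123 and 711 counts in the wild-type libraries and 1221, 1289 and 1009 in EedcKO (0.35, SE 0.21, edgeR adjusted p = 0.473). Gria4, an early AMPA subunit of many interneurons, had 400 and 257 counts against 216, 213 and 155 (-0.76, SE 0.23, edgeR adjusted p = 0.142). The groups overlapped for Gria2 and not for Gria4. As a share of the AMPA family's TPM, Gria2 was 30.3% and 30.1% in the wild-type libraries and 44.2%, 43.4% and 42.5% in EedcKO. The shares of Gria4 were 26.7% and 26.9% against 19.3%, 17.7% and 16.1%, and those of Gria1 36.4% and 38.2% against 28.4%, 31.2% and 32.6%. The share of Gria3 was 6.65% and 4.81% in the wild type and 8.05%, 7.74% and 8.77% in EedcKO. For Gria2, Gria4 and Gria1 the shares of the wild-type libraries lay close together, although their summed AMPA TPM did not (240 and 149, with 150 to 191 in EedcKO). The exact two-sided permutation p was 0.2 for each share, the smallest that 2 against 3 libraries allow (0.333 adjusted over the 30 shares). It only restates that the groups did not overlap.

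Of the kainate receptor genes, Grik4 fell. Grik4 encodes an auxiliary subunit of high agonist affinity (chromosome 9, 42518135 to 42944493, minus strand, the gene of the CpG-rich window above). It had 68 and 89 counts in the wild-type libraries and 35, 39 and 36 in EedcKO, with no overlap (-1.09, SE 0.22, edgeR adjusted p = 0.0434). Its call was lost without the library labelled wild type 2 (edgeR adjusted p = 0.0783). Grik3 stood high in wild type 1 alone, with 1626 counts, where EedcKO had 891, 712 and 754 and the library labelled wild type 2 had 909 (-0.70, edgeR adjusted p = 0.205). Grik5 had 1079 and 1031 counts against 862, 919 and 1018 (-0.18, edgeR adjusted p = 0.414). Grik2, a pore-forming subunit, had 592 and 523 counts in the wild-type libraries and 654, 641 and 580 in EedcKO, and Grik1 60 and 62 against 73, 61 and 64. Neither passed (0.16 and 0.11 on the log2 scale).

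The delta receptors bind synaptic organisers and D-serine rather than glutamate. Grid1 fell, from 142 and 120 counts in the wild-type libraries to 64, 66 and 52 in EedcKO (chromosome 14, 34820108 to 35583379, plus strand). Its log2 fold change was -1.11 (SE 0.19, edgeR adjusted p = 0.0276), with no overlap of the groups.

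Of the GABA-A alpha subunits, which shape GABA affinity and receptor location, Gabra3 was among the genes that fell. Gabra3 (chromosome X, 72432681 to 72656848, minus strand), a subunit of embryonic receptors and the gene of the window without CpG, had 208 and 191 counts against 108, 95 and 87 (-1.05, SE 0.15, edgeR adjusted p = 0.0165). The female EedcKO 1 and the male EedcKO 2 and 3 were all below both wild-type libraries for Gabra3. Gabra5, which is found largely outside synapses, had 58 and 63 counts against 27, 38 and 35, without overlap (-0.86, edgeR adjusted p = 0.116). Gabra2 had 181 counts in wild type 1 against 69 in the other wild-type library, with 92, 115 and 84 in EedcKO, so its direction depended on which wild-type library was used (-0.38 with both, -0.92 without the library labelled wild type 2 and 0.50 without wild type 1). Gabra4 had 37 and 56 counts against 55, 51 and 53 (0.19 with both, -0.07 without wild type 1). Gabra6, a cerebellar granule cell subunit, had 0 counts in every library, which allows up to 3 counts (a one-sided limit, for counting error only) or 0.609 to 0.631 CPM (counts scaled by library size).

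The beta and gamma subunits are needed for assembly and for placement at synapses. None of the 6 passed the test, and all 6 had a log2 fold change below 0. Gabrb2, a beta subunit of many adult receptors, had 142 and 64 counts in the wild-type libraries and 40, 34 and 40 in EedcKO (-1.44, SE 0.35, edgeR adjusted p = 0.0735). Its groups did not overlap, and it passed without the library labelled wild type 2 and with DESeq2. Gabrg1 had 17 and 26 counts against 4, 10 and 6 (-1.67, SE 0.47, edgeR adjusted p = 0.112), on few counts. Gabrb1 had 42 and 31 against 26, 25 and 14, and Gabrg3 21 and 10 against 8, 15 and 3.

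Most GABA-A receptor genes lie in clusters, and the fitted changes differed along them. The chromosome 5 cluster held Gabrg1 (-1.67), Gabra2 (-0.38), Gabra4 (0.19) and Gabrb1 (-0.75). On chromosome X, Gabra3 (-1.05) and Gabrq (-0.84) had the opposite sign to their neighbour Gabre (0.85). Gabre, the epsilon subunit of brainstem and hypothalamic neurons, had 28 and 30 counts in the wild-type libraries and 66, 46 and 45 in EedcKO (edgeR adjusted p = 0.176). Gabrq, the theta subunit, had 65 and 51 against 36, 33 and 28 (edgeR adjusted p = 0.142). Gabre was above both wild-type libraries in the female EedcKO 1 as well as in both males. Gria3, the X-linked AMPA gene, had 156 counts in wild type 1 against 72 in the other wild-type library, with 132 to 146 in EedcKO, so that its direction also turned with the wild-type library used (0.29 with both, -0.18 without the library labelled wild type 2).

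Gabrp, the pi subunit, is known from epithelia and marks 1 library here. It had 190 counts in the library labelled wild type 2 (95% Poisson interval 164 to 219, counting error only), 7 in EedcKO 1 and 0 in the other 3, and was not tested because only 1 library had enough counts. Krt5, a keratin of basal epithelium, had 428 counts in the library labelled wild type 2 and 20 in EedcKO 1, against 0, 1 and 0 in wild type 1 and EedcKO 2 and 3. Krt14 had 200 counts in the library labelled wild type 2 and at most 3 elsewhere, and the basal epithelial factor Trp63 51 and at most 5. All 6 listed markers of surface epithelium summed to 185 CPM there against 9.82 to 18.7 CPM in the other libraries, with 3 of the 6 at 0 in wild type 1. The part of these cells in other receptor values was not tested. The remaining untested genes were near or at 0: Gabrd had 1 to 4 counts in a library, Gabrr2 2 to 5, Gabrr3 at most 1 and Gabrr1 0.

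**Figure D4:**
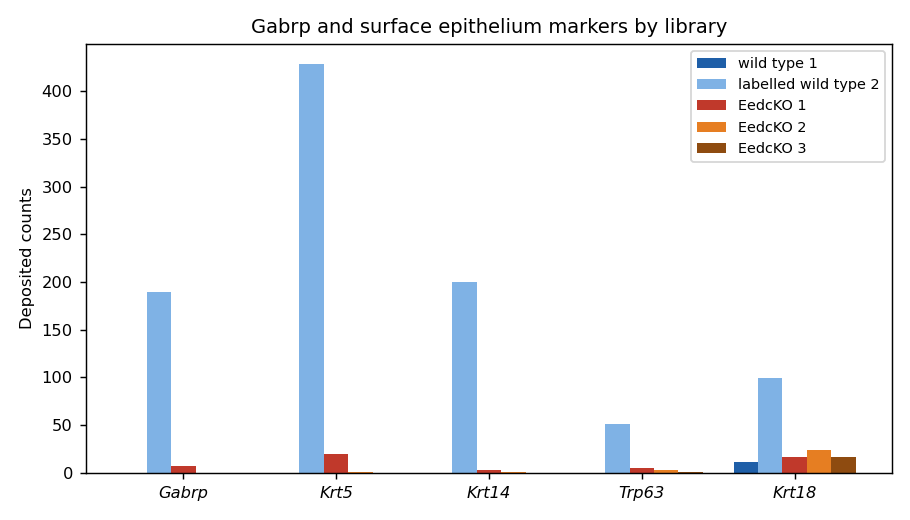
Deposited counts of Gabrp and 4 markers of surface epithelium (Krt5, Krt14, Trp63 and Krt18) in each library, on a linear axis from 0. Gabrp had 190 counts in the library labelled wild type 2, where Krt5 had 428, and at most 7 in any other library.

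Summed over subunits, the GABA-A receptor genes were lower in all 3 EedcKO libraries. Their summed TPM was 312 and 298 in the wild-type libraries and 194, 181 and 165 in EedcKO, a ratio of means of 0.591. Without Gabrp the sums were 312 and 243 in the wild type and 192, 181 and 165 in EedcKO, and the ratio 0.647. The glutamate receptor sums were 805 and 599 TPM in the wild type and 586, 588 and 551 in EedcKO (ratio 0.819), so the library labelled wild type 2 lay close to EedcKO. For these TPM sums the exact two-sided permutation p was 0.2 for both families, the smallest possible, which groups without overlap always give. The glutamate receptor sums overlapped as CPM, which gives long genes more weight (exact permutation p = 0.6). Without Grik5, the most abundant gene, the glutamate sums overlapped (357 to 416 TPM in EedcKO, where the library labelled wild type 2 had 403, exact permutation p = 0.6).

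For some receptor genes wild type 1 stood apart from the other 4 libraries. Grik3, Gria1, Gria4, Grin2b and Gabra2 were higher in wild type 1 than elsewhere, as was Gabrb2. Gria1, the main AMPA subunit of forebrain excitatory neurons, had 523 counts there, 350 in the library labelled wild type 2 and 305, 361 and 301 in EedcKO. These 6 genes were picked for that pattern, so their fits with wild type 1 as the only wild type are a description and no test: the log2 fold changes there ran from -1.92 for Gabrb2 to -0.72 for Gria1, and all 6 are among the 12 genes counted as lower in that fit, where 4.12% of all tested genes were. Conversely, Gria2 and Gria3 were lowest in the library labelled wild type 2. With that library as the only wild type their log2 fold changes were 0.73 and 0.96. Both genes were likewise picked for their pattern, so these fits too are a description and no test. They are the 2 receptor genes counted as higher in that fit, where 3.01% of all tested genes were. Beside these values, 10 pan-neuronal markers summed to 2484 to 2694 CPM in EedcKO, 2527 in the library labelled wild type 2 and 3239 in wild type 1. With all libraries 2 of the 10 passed as lower, where 2.17% of all tested genes did. The part of these markers in the receptor values was not tested.

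Markers of the neurons that carry these receptors differed between the groups as well. Over all tested genes 2.17% passed as lower and 1.04% as higher, the background for the marker counts below. The 11 ventral GABAergic lineage markers summed to 1857 and 1584 CPM in the wild-type libraries and 1114, 817 and 817 in EedcKO, with 5 of the 11 passing as lower. The 7 pallial excitatory neuron markers summed to 930 and 843 CPM against 1333, 1690 and 1666, with 5 passing as higher. The 8 hypothalamic and diencephalic markers summed to 394 and 377 CPM against 172, 207 and 155, with 3 passing as lower. Nkx2-2, with 28 and 8 counts in the wild-type libraries and 0 in all 3 EedcKO libraries, was not tested. Lhx9 (402 and 614 counts against 466, 499 and 417) and Tcf7l2 overlapped between the groups. The wild-type libraries themselves differed for Otp (428 and 85 counts, against 0, 1 and 1) and Sim1 (180 and 17, against 14, 10 and 5). None of the ventral or pallial markers was at 0 in any library, but some ventral ones were near it. Lhx8 had 407 and 328 counts in the wild-type libraries and 35, 1 and 4 in EedcKO 1, 2 and 3. Nkx2-1 had 863 and 724 counts against 331, 7 and 6, so EedcKO 1 stood apart from EedcKO 2 and 3. The ventral marker Gsx2 overlapped between the groups (158 and 127 counts against 134, 118 and 103). The summed radial glia markers were also higher in EedcKO (1566 and 1446 CPM against 1706, 1685 and 1752, with 2 of 8 passing as higher). Those that passed were Pax6 (196 and 157 CPM against 277, 272 and 283) and Slc1a3 (119 and 103 against 183, 175 and 176). Fabp7 was higher without overlap and did not pass. Sox2, Hes1, Hes5, Nes and Vim overlapped between the groups, and Sox2 (-0.07) and Hes5 (-0.18) had log2 fold changes below 0. Lower sums without overlap were found for Cajal-Retzius cells (529 and 564 CPM against 417 to 446, with 2 of 6 passing). Of that list, Reln (302 and 320 CPM against 288, 302 and 332), Calb2 and Ndnf overlapped. The sums were also lower for oligodendrocyte precursors (154 and 140 against 56.7 to 107, with 1 of 5 passing). It also held for peripheral sensory neurons and neural crest (192 and 112 against 67.7 to 99.6, with 1 of 5 tested passing). Sox10 is on both of these lists and was the gene that passed in each. Most of the peripheral sum was Isl1 (143 and 73.0 CPM against 75.0, 41.3 and 43.8), whose groups overlapped. Pou4f1 of that list had a positive log2 fold change (0.37). The part of all these cell types in the receptor differences was not tested.

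Other genes of the same pathways were read from 7 lists of 90 genes, of which 84 were tested. Of these, 8 fell and 3 rose. Over all tested genes 2.17% fell, 1.04% rose and the median log2 fold change was 0.01. This is the background for each list below with all libraries, and not for the fits without a library. Those fits have other backgrounds, given for the receptor genes above and at the end of the lists. The largest change among these 11 was that of Grm7, a presynaptic metabotropic glutamate receptor, with 42 and 34 counts in the wild-type libraries and 9, 8 and 5 in EedcKO (-2.36, SE 0.37, edgeR adjusted p = 0.0226). Gabbr2, the signalling subunit of GABA-B receptors, fell from 106 and 104 counts to 47, 63 and 47 (a 2.0-fold lower level, edgeR adjusted p = 0.0436). They were the 2 that passed of 9 tested metabotropic receptors, a list with a median of -0.98 on the log2 scale. Without the library labelled wild type 2, 5 of the list passed as lower. Its partner Gabbr1 had 1561 and 1297 counts against 1166, 1145 and 1192 and did not pass (-0.29).

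Slc12a5, the neuronal chloride exporter, fell from 543 and 456 counts to 213, 163 and 168 (-1.46, SE 0.15, edgeR adjusted p = 0.0073). No other of the 6 tested cation-chloride cotransporters passed. Slc12a2, which loads chloride into immature neurons, had 672 and 535 counts against 751, 678 and 582 (0.15, edgeR adjusted p = 0.702). The exporter was thus below both wild-type libraries in each EedcKO library, while the importer's groups overlapped.

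Among 22 tested genes of the excitatory postsynaptic scaffold, Dlgap3 (-0.80) and Dlg2 (-1.04) fell, and the list's median was -0.20. Dlg2 encodes PSD-93, a scaffold that binds NMDA receptors, and had 389 and 313 counts against 169, 189 and 156 (edgeR adjusted p = 0.0156). Of 15 genes of the inhibitory scaffold and of GABA-A receptor trafficking, Iqsec3, a gephyrin-binding exchange factor, fell from 359 and 291 counts to 171, 141 and 132 (-1.14, edgeR adjusted p = 0.0162). The inhibitory scaffold protein gephyrin itself (Gphn) had 315 and 313 counts against 291, 328 and 347. Without the library labelled wild type 2, the excitatory list had 5 genes lower and the inhibitory list 4.

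None of the 16 auxiliary glutamate receptor subunits, which set the trafficking and gating of AMPA and kainate receptors, passed with edgeR. At an unadjusted edgeR p under 0.05, 8 were lower and 3 higher, where 9.51% and 7.70% of all tested genes were. After adjustment limma-voom called 0 and DESeq2 called 1 higher. The edgeR call of 0 rested on both wild-type libraries: 4 passed as lower and 2 as higher without the library labelled wild type 2, and 1 as lower without wild type 1. The smallest p-values were those of Shisa6 (112 and 138 counts against 168, 232 and 231; 0.75, edgeR adjusted p = 0.0708) and Cnih2 (501 and 544 against 366, 420 and 433; -0.36, edgeR adjusted p = 0.0984). Of the 5 glycine receptor genes, the related inhibitory channels, Glra2 (-0.06) and Glrb (0.22) had enough counts, and neither had an unadjusted edgeR p under 0.05, nor did DESeq2 or limma-voom call either.

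Of 14 genes that make and transport the transmitters, 2 fell and 3 rose. The vesicular GABA transporter Slc32a1 (-1.07, edgeR adjusted p = 0.0210) and the GABA-degrading transaminase Abat (-0.96, edgeR adjusted p = 0.0179) fell. The vesicular glutamate transporter Slc17a7 (2.07, edgeR adjusted p = 0.0216) and the glial glutamate transporter Slc1a3 (0.68, edgeR adjusted p = 0.0156) rose. So did the vesicular glutamate transporter Slc17a6 (0.63, edgeR adjusted p = 0.0283), named here after its value was seen. Slc17a7 is also on the pallial marker list above and Slc1a3 on the radial glia list, where each was already counted as higher. The call of Slc17a7 was lost without the library labelled wild type 2 (2.37, edgeR adjusted p = 0.0592) and without wild type 1 (1.81, edgeR adjusted p = 0.0809). The counts for this list were then 4 lower and 2 higher, and 3 lower and 2 higher without wild type 1. Without EedcKO 3 none of the 84 tested genes passed with edgeR, although 22 were lower and 7 higher at an unadjusted p under 0.05. In that fit 1886 of 13891 tested genes had such a p in either direction. Without the library labelled wild type 2, 23 passed as lower and 4 as higher (4.12% and 2.07% of all tested genes).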

How the data were processed

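Polyadenylated RNA of 5 forebrain samples, 2 wild type and 3 EedcKO, was sequenced on the BGISEQ-500 platform, per the labels' protocols. Per the submitters' processing notes, the build was mm10 and the tool named is HISAT2 2.2.0. The sources used here give no counting tool, strand setting or annotation. The authors deposited whole-number counts per gene, not normalized, in 56196 rows, and TPM in 24926 rows, scaled to 1 common sum per column. For all 11960 genes with at least 20 counts in each library, counts and TPM had the same proportions between libraries within 1%. The 100 most abundant genes took 5.05% to 5.81% of a library and no count exceeded 6396, so levels of abundant genes may be compressed. Rows without a symbol (28277 rows, 2.01% to 2.16% of counts) were left out of library sizes and tests. For 407 repeated symbols, the name was kept on a row with at least 99% of the symbol's counts.

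The analysis of counts used edgeR 4.0.16 in R 4.3.3 (filterByExpr by group, TMM, glmQLFit with robust estimation, glmQLFTest on genotype), with Benjamini-Hochberg adjustment over 13989 genes. A standard error is the log2 fold change over the square root of F. CPM use TMM factors. Tested on simulated data of 13839 genes, the fit found 33.8%, 71.2% and 93.9% of genes changed 1.5-fold, 2-fold and 4-fold. Of 143 calls, 12 were false. The simulated noise was drawn gene by gene around 1 scaled mean for all libraries of a group. It held no library at odds with its label and no difference in sex or cell types. These rates may therefore not hold for the deposited data. Poisson intervals (95%) cover counting error only. Per gene, the chi-square between libraries was 2.62 to 11.0 times that of sampling noise, so none was a duplicate. Positions are from GENCODE M21 (mm10), 1-based, matched by symbol.

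The members and the gene lists were chosen with earlier results of these data known. All members enter the counts, medians and sums, and 4 of those tested are not reported by name here. Values in every library are given for named members past the threshold or changed at least 2-fold and where subunits are compared. From each pathway list up to 4 genes past the threshold with the largest change are named, or the 2 with the smallest p. Alternatives were DESeq2 1.42.0, limma-voom (limma 3.58.1), RLE factors, scaling by library size alone, robust estimation off, other count filters, limma-trend on log2(TPM + 1) and on log2(TPM + 0.1), a replicate block, a covariate for embryo sex and each library left out. A fit of the female libraries and a GABA-A sum without Gabrp were chosen after seeing the data. Where a fit leaves 1 library in a group, its spread is taken to be that of the other group. In the deposited tables, 0 columns belonged to other samples.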

Additional observations from a re-analysis of the deposited data

How the results depend on the processing

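The 5 receptor genes that fell kept their direction under all 18 alternatives run for each, in part because their groups do not overlap. Gabra3 kept its call in 13 of the 18, Grin3a in 10, Grid1 in 9 and Grik4 in 8. The number of receptor genes that fell was 8 with library size alone, with DESeq2 and with no count filter, with Gabrb2 among the added genes. It was 1 on the TPM scale with a pseudocount of 1, with a pseudocount of 0.1 and with no filter (157 of 15645, 176 of 15645 and 115 of 18773 tested genes were lower there), where 4, 4 and 3 pathway list genes were lower, against 8 in edgeR. It was 0 with embryo sex as a covariate, as was the number of pathway list genes in either direction. With that covariate 0 genes passed in all, and edgeR had 13 receptor genes lower at an unadjusted p under 0.05. In either direction, 1611 of 13989 tested genes had such a p. The female libraries alone leave EedcKO 1 as the only EedcKO library, so no count of calls is given for that fit. No wild type was male, so both fits compare EedcKO 1 alone with the wild type. With each library left out in turn, receptor genes lower numbered 0 to 12 (6 without wild type 1 where Gabrp is counted) and higher 0 to 2, their median log2 fold change ran from -0.91 to -0.39, and pathway list genes lower numbered 0 to 23 and higher 0 to 4. Without wild type 1, Gabra2 (0.50) and Gabra4 (-0.0701) changed sign, as did Gria3 (-0.18) without the library labelled wild type 2; with single libraries left out, Gabra2 ran from -0.92 to 0.50, Gabra4 from -0.0701 to 0.50 and Gria3 from -0.18 to 0.96. The cause was not tested. With the replicate number as a block, no receptor gene and no pathway list gene passed (0 each, 0 of all tested genes). With this block edgeR had 15 receptor genes lower at an unadjusted p under 0.05. In either direction, 2169 of 13989 tested genes had such a p. Nothing in the labels pairs the replicate numbers. Deviations from the group means correlated at -0.00895 for number 1 and 0.127 for number 2 over genes. The ratio of summed GABA-A receptor TPM was 0.647 without Gabrp, against 0.591. Low depth limits Gabrg1, Gabrg3, Grin2a and Grin2c, each with 3 to 26 counts in a library.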
